A study of Mus musculus with 54 samples.

Results

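The 7 mouse sirtuin genes, Sirt1 to Sirt7, were followed across kidney, brain and heart and across Cmpd60 treatment. They were taken by gene symbol from the 54232 Ensembl genes of the count files, and all 7 were found and all 7 passed the filter on low counts in every fit. Cmpd60 is a benzamide inhibitor of HDAC1 and HDAC2, the zinc-dependent deacetylases, so the sirtuins are deacylases that the compound is not described as targeting. The question addressed was therefore at which level each sirtuin is transcribed in these tissues and whether treatment moved that level.

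Sirtuins are deacylases that use NAD+ as a co-substrate and remove acetyl or other acyl groups from lysines, which couples them to the energy state of the cell. SIRT1, SIRT6 and SIRT7 are mainly nuclear, SIRT2 is mainly cytoplasmic, and SIRT3, SIRT4 and SIRT5 are mitochondrial. They are widely studied in ageing, in oxidative metabolism of heart and kidney and, for SIRT2, in the myelin-forming cells of the brain.

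RNA was sequenced from male BL6 mice aged 20 months that received daily intraperitoneal injections of vehicle or of Cmpd60 at 22.5 mg/kg for 14 days. These gave 5 vehicle and 6 Cmpd60 kidney libraries, 6 and 6 brain libraries, and 6 and 5 heart libraries. A second cohort of 20 brain libraries came from APPSWE-1349 transgenic mice, which carry human amyloid precursor protein with the Swedish mutation on a BL6 background, and from control littermates, aged 6 to 7 months and given the same treatments. It held 5 littermate vehicle, 5 littermate Cmpd60, 6 transgenic vehicle and 4 transgenic Cmpd60 libraries, and the promoter that drives the transgene is not given in the sources used here. Before death the mice of this cohort were fasted overnight, by the study's methods, whose part on the aged mice names no fast. The study's methods give 6 Cmpd60 and 7 vehicle aged mice, fewer than the aged libraries, so some mice must have given more than 1 library. The labels do not say which tissues came from 1 mouse, so libraries were treated as separate mice. The p-values measure the spread between these libraries, and those between tissues ignore that sharing.

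Library size ran from 23584609 to 57430113 counts in genes. The tissue labels matched their markers: the summed level of 8 kidney markers was 7330 to 15700 library-size-scaled counts (CPM) in kidney and at most 10.9 elsewhere, that of 8 heart markers was 76700 to 89100 in heart and at most 295 elsewhere, and that of 8 neuronal markers was 5350 to 7510 in brain and at most 113 elsewhere. For kidney, a treatment field of the labels contradicts the sample titles, the source names and the study's own table, and the titles were followed, so every direction in kidney rests on them. Library s139 is called vehicle by all of its labels and Cmpd60 by the heading of the study's table; it was kept out of the main tests and its values are given separately. In the younger cohort 5 libraries (s140, s141, s146, s152 and s155) detected 15044 to 16577 genes, against 18122 to 24821 in the other 15. Mouse App did not separate transgenic from littermate libraries, with 1760 to 2120 CPM in both, so every contrast of genotype rests on the labels. Whether its counts take in reads of the human transgene was not tested.

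The sequence directly before the start of 4 of the genes is shown because it bears on which reads can belong to each gene. It was taken from RefSeq on GRCm38.p6, written 5′ to 3′ along the strand of the sirtuin and ending at the base before its start, and it was stopped where a neighbouring gene begins. Capitals mark matches on either strand to the GC box GGGCGG, the E-box CACGTG or the ETS element CCGGAAG. The CCAAT box CCAAT, the TATA box TATAAA and the ERR element TCAAGGTCA were also searched, and these letters were in none of the 4 stretches. The 3 other genes have a transcript model that reaches into the window, and none is shown for them.
Sirt1 (chr10:63339036-63339285, minus strand): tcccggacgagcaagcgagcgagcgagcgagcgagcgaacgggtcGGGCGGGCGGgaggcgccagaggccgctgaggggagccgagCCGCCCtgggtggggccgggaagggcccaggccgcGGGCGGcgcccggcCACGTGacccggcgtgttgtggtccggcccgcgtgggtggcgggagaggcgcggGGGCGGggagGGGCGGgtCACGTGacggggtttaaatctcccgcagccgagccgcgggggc
Sirt2 (chr7:28766645-28766751, plus strand): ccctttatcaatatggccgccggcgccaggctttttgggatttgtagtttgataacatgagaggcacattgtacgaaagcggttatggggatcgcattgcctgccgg
Sirt3 (chr7:140882310-140882393, minus strand): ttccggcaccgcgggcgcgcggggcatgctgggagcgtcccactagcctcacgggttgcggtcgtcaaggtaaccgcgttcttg
Sirt7 (chr11:120625015-120625116, minus strand): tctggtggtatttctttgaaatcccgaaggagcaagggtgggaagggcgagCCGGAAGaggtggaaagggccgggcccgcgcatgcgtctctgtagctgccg

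The Sirt1 stretch is 79.2% G and C and holds 6 GC box matches, the first 2 of which overlap each other, and 2 E-box matches. Of all 32851 promoter windows of the same 250 bases, 32.7% hold a GC box and 6.02% an E-box. The Sirt7 stretch of 102 bases holds 1 ETS element, which 4.57% of windows of that length hold. In RefSeq, Sirt2 is separated by 107 bases from Nfkbib, Sirt3 by 84 bases from Psmd13 and Sirt7 by 102 bases from Mafg. Nfkbib and Psmd13 are transcribed from the opposite strand, and Mafg from the same strand as Sirt7. In the GENCODE vM1 annotation these neighbours overlap their sirtuin. There Ric8 also overlaps Sirt3 and Gm16145 overlaps Sirt1, both on the opposite strand. The libraries kept strand and the counting used it, so reads of Sirt2 and Sirt3 are separable from those neighbours, whereas under the default union mode of the counting a read that overlaps both Sirt7 and Mafg is ambiguous and counted for neither. A match is a description of the letters and not evidence of a bound factor.

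**Figure D1:**
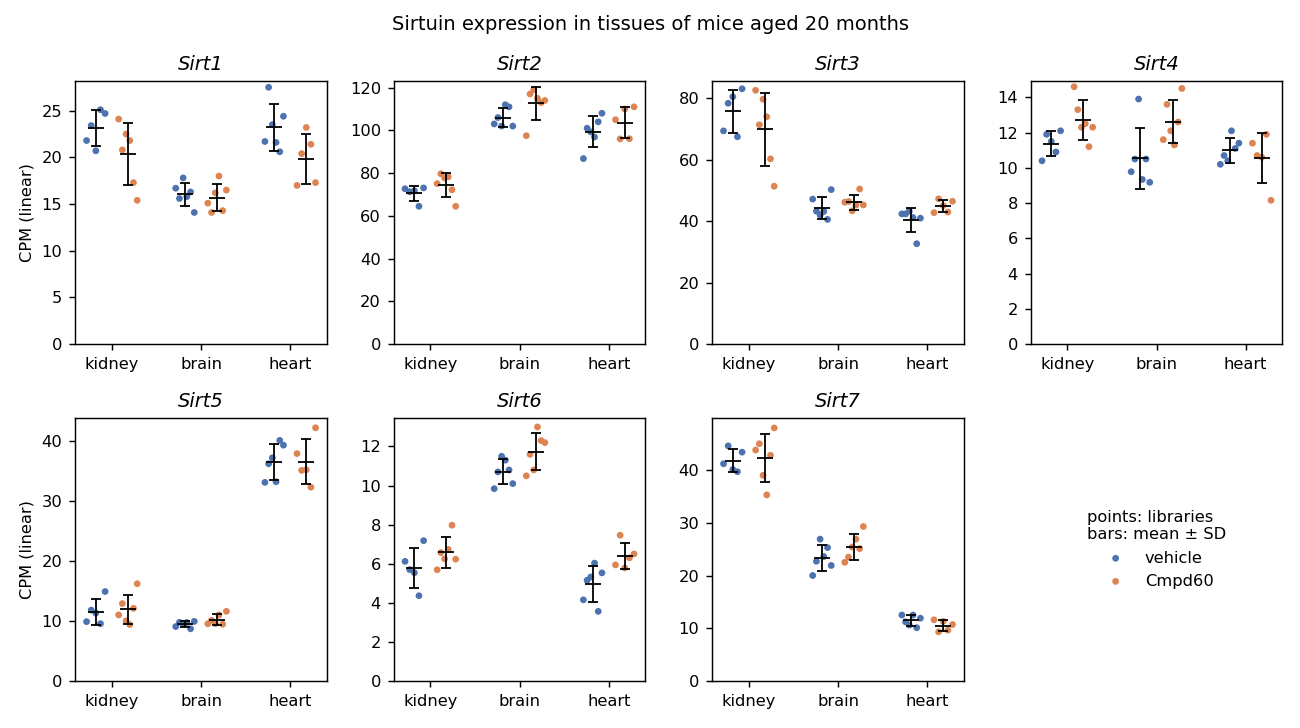
CPM on a linear axis for each sirtuin in kidney, brain and heart of mice aged 20 months; points are libraries (blue vehicle, orange Cmpd60) and bars the mean ± SD. Sirt5 stands at 33.1 to 40.1 CPM in vehicle heart and at most 14.9 in the other vehicle tissues, Sirt7 steps down from kidney to brain to heart, and the colours overlap in every panel and tissue.

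Between vehicle tissues the sirtuins did not share a pattern. Sirt5 was highest in heart, Sirt7 and Sirt3 in kidney and Sirt6 in brain, Sirt2 was higher in brain and heart than in kidney, Sirt1 was lowest in brain except under plain library totals, where its brain and heart levels did not separate, and no difference between tissues passed the test for Sirt4 except under those totals and without 1 brain library. At an adjusted p below 0.05, 6 of the 7 were called between brain and kidney, where 72.5% of all 27105 genes were called. Between brain and heart 4 of 7 were called against 72.1% of all genes, and between kidney and heart 4 of 7 against 56.7%. These shares are close to or below the background, so a difference between tissues is not particular to the sirtuins. Ranges did not overlap for 5, 4 and 4 of the 7, against 59.6%, 55.1% and 41.4% of all genes. In these bulk samples, fewer cells of a type and less RNA per cell cannot be told apart.

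Among the mitochondrial members, Sirt5, a desuccinylase, differed most. In vehicle heart it stood at 33.1 CPM in the lowest library, 36.7 at the median and 40.1 in the highest. In vehicle brain the corresponding values were 8.69, 9.65 and 9.92 CPM, and the 5 vehicle kidneys had 9.88, 11.8, 11.3, 9.54 and 14.9 CPM. Every heart library lay above every brain and kidney library. The level was 3.91-fold higher in heart than in brain (95% interval of brain over heart 0.219 to 0.299; adjusted p = 4.5e-18, edgeR quasi-likelihood test) and 3.10-fold higher than in kidney (adjusted p = 6.6e-15). Brain and kidney overlapped, with a log2 difference of -0.33 ± 0.11 (SE) between brain and kidney and an adjusted p of 0.00954. That call was lost with DESeq2 (adjusted p = 0.119), with DESeq2 size factors in edgeR (0.115), with plain library totals (0.303) and without kidney vehicle library 49 (log2 -0.22, adjusted p = 0.0818).

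Sirt3, the main mitochondrial deacetylase, was highest in kidney. The 5 vehicle kidneys had 69.4, 78.4, 80.5, 67.5 and 83.1 CPM. Vehicle brain ran from 40.6 through a median of 43.2 to 50.3 CPM, and vehicle heart from 32.7 through 41.8 to 43.3 CPM. All kidney libraries lay above all libraries of the other tissues, by 1.77-fold over brain (log2 brain minus kidney -0.82 ± 0.09, SE; adjusted p = 3.6e-10) and 1.91-fold over heart (log2 0.94 ± 0.09; adjusted p = 2.49e-11). Brain and heart differed by 0.12 ± 0.09 (95% interval -0.06 to 0.29) on the log2 scale, which was not called (adjusted p = 0.234), although it was called under plain library totals (log2 0.71). Its head-to-head neighbour is Psmd13, a proteasome subunit gene. Psmd13 stood at 81.3 ± 4.14 CPM in kidney, 68.2 ± 4.63 in brain and 88.6 ± 8.75 in heart (SD, n = 5, 6 and 6). Like Sirt3, it was lower in brain than in kidney (log2 -0.30, adjusted p = 0.000832, edgeR). Unlike Sirt3, it was not called between kidney and heart (log2 -0.09, adjusted p = 0.34, edgeR).

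Sirt4, which encodes a mitochondrial ADP-ribosyltransferase and lipoamidase, had similar means in all tissues. Its mean was 11.4 ± 0.70 CPM in vehicle kidney, 10.5 ± 1.75 in brain and 11 ± 0.71 in heart (SD, n = 5, 6 and 6), and the ranges overlapped. The log2 differences were -0.16 (95% interval -0.37 to 0.05) between brain and kidney, -0.08 (-0.28 to 0.12) between brain and heart and 0.08 (-0.13 to 0.29) between kidney and heart. Adjusted p-values were 0.159, 0.465 and 0.558. Without brain vehicle library 29, the highest of its group at 13.9 CPM, the brain and kidney difference was -0.26 with an adjusted p of 0.0174. Under plain library totals heart was lower, with log2 differences of 0.52 for brain and 0.49 for kidney over heart (adjusted p = 2.08e-05 and 0.000125), and the sign of the brain and kidney difference turned (0.03, adjusted p = 0.783).

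Of the nuclear members, Sirt7, which acts at ribosomal DNA and on histone H3, fell in steps from kidney to brain to heart. The vehicle kidneys had 41.2, 44.6, 40.1, 39.7 and 43.4 CPM. Vehicle brains ran from 20.0 through a median of 23.1 to 26.9 CPM and vehicle hearts from 10.1 through 11.5 to 12.5 CPM, so that the tissues did not overlap. Kidney was 3.73-fold above heart (95% interval 3.29 to 4.22; adjusted p = 2.45e-20) and 1.85-fold above brain (adjusted p = 1.11e-11), and brain was 2.01-fold above heart (1.79 to 2.27; adjusted p = 3.67e-13). The neighbour Mafg, a small Maf transcription factor gene, had another order, with 91.8 ± 7.88 CPM in brain, 74.9 ± 3.31 in kidney and 67.6 ± 4.37 in heart (SD, n = 6, 5 and 6).

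Sirt6, a chromatin deacylase with roles in DNA repair and glycolysis, had the lowest mean level of the members in vehicle kidney and heart. Vehicle brains ran from 9.84 through a median of 10.7 to 11.5 CPM. The kidneys had 6.12, 5.70, 5.54, 4.36 and 7.18 CPM and the hearts ran from 3.56 through 5.24 to 6.03 CPM, the lowest from 79 counts. Brain exceeded kidney 1.79-fold (95% interval 1.50 to 2.12; adjusted p = 2.13e-07) and heart 2.13-fold (1.80 to 2.52; adjusted p = 3.26e-10), with no overlap. Kidney and heart overlapped and were not called (log2 0.26 ± 0.12, SE; adjusted p = 0.0822). That difference passed the test without kidney vehicle library 48 (log2 0.34, adjusted p = 0.0213), without heart vehicle library 65 (log2 0.32, adjusted p = 0.0358) and with plain library totals (log2 0.67).

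Sirt1, the deacetylase of p53, FOXO factors and PGC-1alpha, was lower in brain. Vehicle brains ran from 14.1 through a median of 16.1 to 17.8 CPM, whereas kidneys had 21.8, 23.4, 20.7, 25.1 and 24.7 CPM and hearts ran from 20.6 through 22.6 to 27.5 CPM. No brain library reached a kidney or heart library. Brain was lower by 0.58 ± 0.10 (SE) on the log2 scale than kidney (adjusted p = 5.42e-06) and by 0.55 ± 0.10 than heart (adjusted p = 6.37e-06), although with plain library totals the sign of the brain and heart difference turned (log2 0.05, adjusted p = 0.608). Kidney and heart differed by 0.03 (95% interval -0.18 to 0.23), by -0.04 with DESeq2 size factors and by 0.44 with plain totals, where the difference was called (adjusted p = 9.19e-05).

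The cytoplasmic member Sirt2, a tubulin and histone deacetylase, had the highest CPM of the family in brain and heart. It ran from 102 through a median of 105 to 112 CPM in vehicle brain and from 86.8 through 100 to 108 in vehicle heart, and the vehicle kidneys had 72.7, 71.3, 71.8, 64.5 and 73.1 CPM. Kidney lay below both, by 0.54 ± 0.07 (SE) on the log2 scale against brain (adjusted p = 3.34e-09) and 0.46 ± 0.07 against heart (adjusted p = 1.06e-07). Plain library totals left the kidney and heart difference at -0.05 with an adjusted p of 0.508. Brain and heart differed by 0.07 (95% interval -0.05 to 0.20; adjusted p = 0.283), and this was called with DESeq2 (0.14, adjusted p = 0.0331), with DESeq2 size factors in edgeR (adjusted p = 0.0433) and with plain totals (0.67). With TMM the median gene was 0.24 higher in brain than in kidney, 0.44 higher in brain than in heart and 0.02 higher in kidney than in heart on the log2 scale, and plain totals added 0.19, 0.60 and 0.41 to every difference.

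CPM grows with transcript length, so members were also set against each other as CPM per kilobase of exon, from the union of exons in GENCODE vM1. In vehicle kidney Sirt3 led with 48.3 ± 4.41 CPM per kilobase, above Sirt2 at 19.8 ± 0.99, Sirt7 at 8.12 ± 0.41, Sirt5 at 5.30 ± 0.98, Sirt4 at 4.74 ± 0.29, Sirt1 at 4.34 ± 0.35 and Sirt6 at 2.08 ± 0.37 (SD, n = 5). The neighbours Sirt5 and Sirt4, and Sirt4 and Sirt1, had overlapping ranges, and the other steps did not overlap. In vehicle brain Sirt2 (29.7 ± 1.27) and Sirt3 (28.3 ± 2.31) overlapped at the top, far above Sirt7, Sirt4, Sirt5 and Sirt6, which followed within 3.84 to 4.55 and overlapped from each to the next, and Sirt1 was last at 3.01 ± 0.23 (SD, n = 6). In vehicle heart Sirt2 (27.8 ± 2.03) and Sirt3 (25.8 ± 2.49) again overlapped, Sirt5 came next at 16.9 ± 1.37 with no overlap on either side, Sirt4 and Sirt1 overlapped at 4.58 and 4.36, and Sirt7 and Sirt6 overlapped at 2.23 and 1.78 (n = 6).

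**Figure D2:**
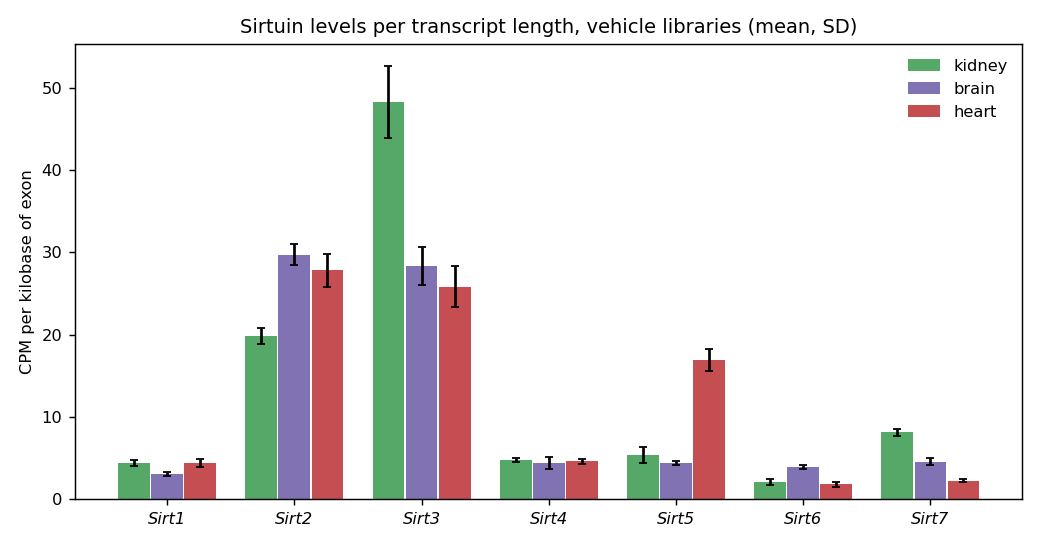
Mean CPM per kilobase of exon with SD in vehicle libraries of kidney (n = 5), brain (n = 6) and heart (n = 6). Sirt2 and Sirt3 carry most of the signal in each tissue, with Sirt3 at 48.3 in kidney, and Sirt5 adds 16.9 in heart.

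The mitochondrial members Sirt3, Sirt4 and Sirt5 made up 62.9% ± 1.67 of the summed level per kilobase in vehicle kidney, 56.6% ± 1.49 in heart and 47.4% ± 2.38 in brain (SD, n = 5, 6 and 6). In kidney that share came mostly from Sirt3, and in heart Sirt5 joined it. With the longest coding transcript as length, the shares were 48.2%, 46.3% and 34.8%, and the ranges of kidney (45.7 to 49.9%) and heart (45 to 48.3%) overlapped. Under that length Sirt2 no longer overlapped Sirt3 in brain (57.5 against 30.4 CPM per kilobase) or heart (53.9 against 27.7), since its exon union of 3568 bases is much longer than its longest coding transcript of 1843 bases. Sirt7 rose to 24.2 in kidney, 13.5 in brain and 6.64 in heart, with lengths of 5148 and 1727 bases. In heart Sirt3 (27.7) and Sirt5 (25.1) then overlapped. Levels of Sirt2, Sirt5 and Sirt7 relative to the other members therefore depend on which transcripts are used, which gene counts do not show.

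Genes with the most similar level across the 34 aged libraries were listed for each sirtuin, by Pearson's r of log2 CPM among 15155 genes. Since 3 tissues make up these libraries, r mostly describes the difference between tissues and is given as a description. Sirt5 was closest to Ccdc9b (r = 0.987) and to Timm10, a chaperone of mitochondrial protein import (0.986). Sirt7 was closest to Tnfrsf21 and Dao (0.985 each), the latter encoding D-amino acid oxidase of the renal proximal tubule. Sirt3 was closest to Decr2 (0.950) and Aldh3a2 (0.947), which act in the breakdown of fatty acids and fatty aldehydes. Sirt2 was closest to Slc25a29 (0.961) and Lrig1 (0.948), Sirt6 to Wdr54 (0.949) and Gas2l1 (0.939), and Sirt1 had an r of 0.881 with Polr2b. For Sirt4 the highest values were 0.631 with Tbc1d31 and 0.616 with Hdac10, the weakest of the family.

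Within a tissue and treatment, sirtuins varied little together. As deviations from group means over the same 34 libraries, the highest r between members were 0.435 for Sirt5 and Sirt7 and 0.434 for Sirt1 and Sirt3, and the lowest was -0.354 for Sirt1 and Sirt5. The libraries share their depth and composition, and no p is attached to these values.

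Cmpd60 did not change the transcript level of any sirtuin in aged kidney, brain or heart at an adjusted p below 0.05 (edgeR quasi-likelihood test over all genes). Of all genes tested, 0.300% were called in kidney, 0.0205% in brain and 1.18% in heart. DESeq2 and limma-voom called 0 of the 7 in each tissue as well. At an unadjusted p below 0.05 there were 0 of 7 in kidney, 1 of 7 in brain and 2 of 7 in heart, where 11.3%, 13.8% and 13.5% of all genes passed. Vehicle and Cmpd60 libraries overlapped for all 7 members in each tissue, as they did for all but 2.28%, 1.01% and 2.42% of genes.

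**Figure D3:**
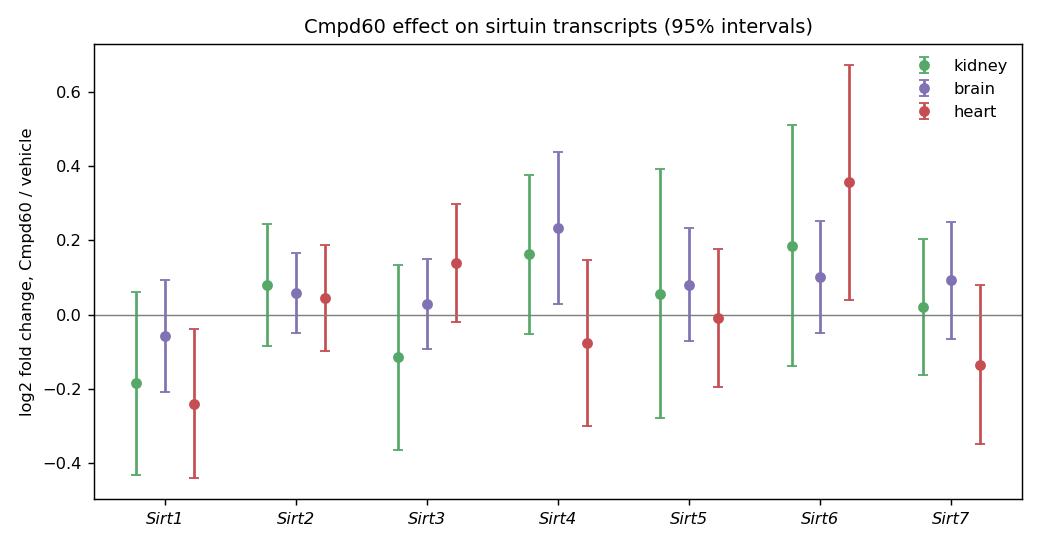
Log2 fold change of Cmpd60 over vehicle for each sirtuin in kidney (green), brain (purple) and heart (red), with 95% intervals from the edgeR fit of each tissue. The intervals of Sirt4 in brain and of Sirt1 and Sirt6 in heart leave 0 out before adjustment, and none of the effects passed adjustment.

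In kidney the 7 log2 changes ran from -0.19 to 0.19, with a median of 0.06 against 0 over all genes. The widest interval was that of Sirt5, -0.28 to 0.39, and the narrowest that of Sirt2, -0.08 to 0.24. Sirt3 in the 6 Cmpd60 kidneys ran from 51.4 through a median of 72.7 to 82.6 CPM, and Sirt1 from 15.4 through 21.3 to 24.1. The lowest value of both came from Cmpd60 library 55, which also detected the fewest genes of the kidney libraries, 18512. The summed level of the kidney markers ran from 7330 to 15700 CPM in Cmpd60 kidneys and from 12700 to 15600 in vehicle kidneys. The part of library quality or of tissue composition in these values was not tested. Sirt7 differed by 0.02 (95% interval -0.16 to 0.20) and Sirt4 by 0.16 (-0.05 to 0.38).

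The brain gave the narrowest intervals, and the log2 changes ran from -0.06 to 0.23 with a median of 0.08 against 0.01 over all genes. The largest was that of Sirt4. It ran from 9.18 through a median of 10.1 to 13.9 CPM with vehicle and from 11.3 through 12.3 to 14.5 with Cmpd60. All 6 Cmpd60 brains lay above 5 of the 6 vehicle brains, and vehicle library 29, at 13.9 CPM, lay among them. The change was 0.23 ± 0.10 (SE) on the log2 scale, or 1.18-fold (95% interval 1.02 to 1.35), with an adjusted p of 0.305 from edgeR. Without library 29 it was 0.33 with an adjusted p of 0.0438. That fit called 372 of all 24262 genes, against 5 of 24438 with the library. Sirt2 differed by 0.06 (95% interval -0.05 to 0.17), Sirt3 by 0.03 (-0.09 to 0.15) and Sirt1 by -0.06 (-0.21 to 0.09).

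In heart the members went both ways, from -0.24 to 0.36 on the log2 scale with a median of -0.01 against -0.001 over all genes. Sirt1 ran from 20.6 through a median of 22.6 to 27.5 CPM with vehicle, and the 5 Cmpd60 hearts had 17.0, 20.4, 23.2, 21.4 and 17.3 CPM. Library 68 and library 72 lay clearly below the vehicle range and library 69 just below it, and the other 2 lay within it. The log2 change was -0.24 ± 0.10 (SE), 95% interval -0.44 to -0.04, with an adjusted p of 0.263 from edgeR. Sirt6 ran from 3.56 through 5.24 to 6.03 CPM with vehicle, and the Cmpd60 hearts had 5.94, 7.46, 5.78, 6.30 and 6.50 CPM. Only the highest vehicle library, number 65, reached into the Cmpd60 range. The change was 1.28-fold (95% interval 1.03 to 1.59), with an adjusted p of 0.294 from edgeR. Sirt5, the member with the high heart level, differed by -0.01 (95% interval -0.19 to 0.18), and Sirt3 by 0.14 (-0.02 to 0.30).

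No sirtuin responded differently between tissues at an adjusted p below 0.05 in the edgeR fit of all 34 aged libraries, where the difference of the responses itself was tested. The background was 0.0885% of all genes for kidney minus brain, 0.350% for kidney minus heart and 0.0517% for brain minus heart. DESeq2 and limma-voom also called 0 of 7 in each. At an unadjusted p below 0.05 there were 0, 1 and 1 of the 7 members, where 10%, 11.7% and 9.08% of all genes passed. These were Sirt3, whose kidney response was 0.27 ± 0.13 (SE) lower on the log2 scale than its heart response (adjusted p = 0.414), and Sirt4, whose brain response was 0.33 ± 0.14 higher than its heart response (adjusted p = 0.485), both from edgeR.

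In brain of the APPSWE cohort 0 of 7 sirtuins passed an adjusted p of 0.05 in any of 5 contrasts, by edgeR, DESeq2 or limma-voom. The share of all 23194 genes called by edgeR was 0% for Cmpd60 in transgenic mice, for Cmpd60 in littermates, for genotype under Cmpd60 and for the interaction of genotype and treatment, and 0.00862% for genotype under vehicle. At an unadjusted p below 0.05 there was 1 member for Cmpd60 in transgenic mice, where 9.46% of genes passed, and 0 of 7 for Cmpd60 in littermates (3.67%), genotype under vehicle (8.67%), genotype under Cmpd60 (1.34%) and the interaction (5.09%). Ranges overlapped for all 7 members in the first 3 of these, as they did for all but 0.530%, 0.612% and 0.854% of genes. The spread between libraries was much larger than in the aged tissues, with a biological coefficient of variation of 0.729 against 0.114 in aged brain, so the intervals were wide. The interval of Sirt1 for Cmpd60 in transgenic mice, for example, ran from -1.56 to 0.38 on the log2 scale.

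**Figure D4:**
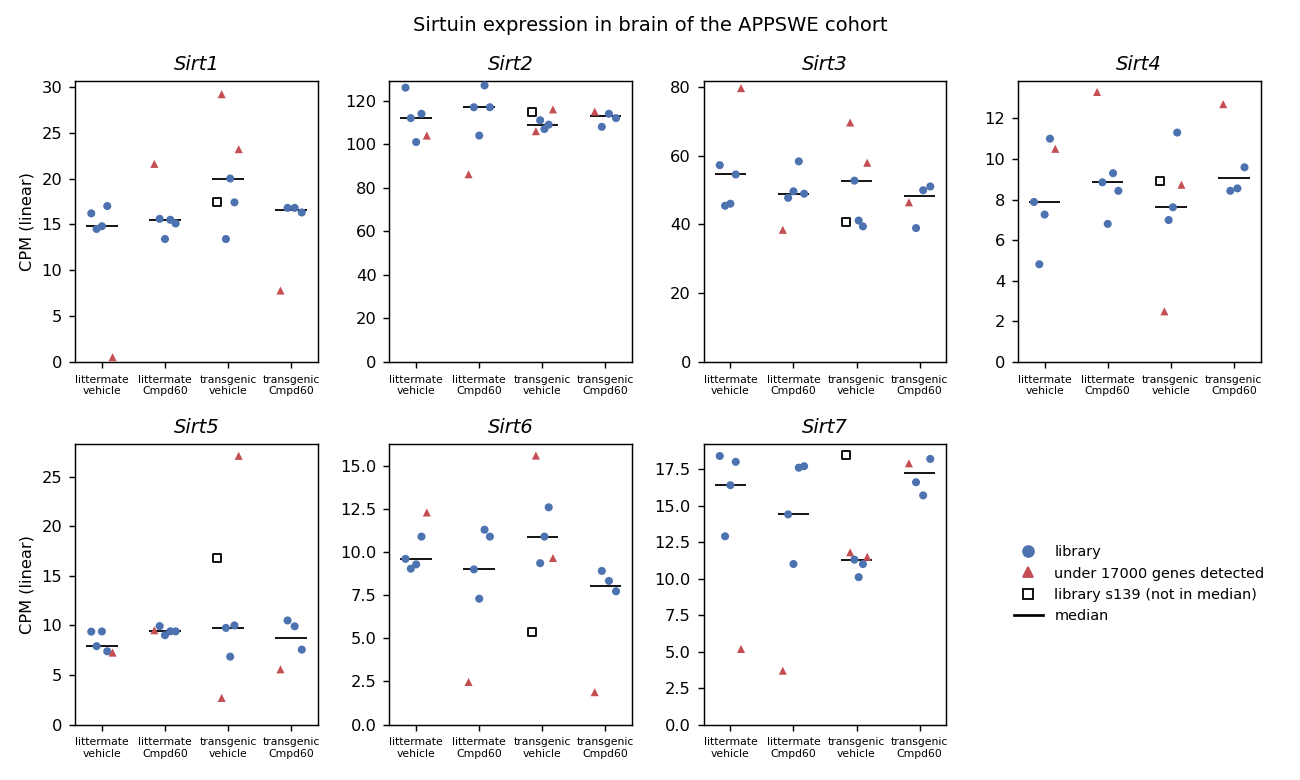
CPM on a linear axis for each sirtuin in the 4 groups of the younger cohort; points are libraries, triangles those with under 17000 genes detected, the open square library s139 and lines the medians without it. Sirt2 stays within 86.2 to 127 CPM, while the triangles hold the extremes of several low members, among them 0.511 CPM for Sirt1 and 27.1 CPM for Sirt5.

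Sirt6 and Sirt7 were the 2 of 7 members whose transgenic vehicle and Cmpd60 libraries did not overlap, where 2.45% of all genes did not overlap. For Sirt6 the 5 vehicle libraries without library s139 had 15.6, 9.36, 10.9, 12.6 and 9.66 CPM and the 4 Cmpd60 libraries 1.88, 8.91, 8.33 and 7.73 CPM. The Cmpd60 values lay lower, and library s141, one of those with few genes detected, was far below the rest from 56 counts. The log2 change was -0.87 ± 0.40 (SE), 95% interval -1.70 to -0.04, with an adjusted p of 0.502 from edgeR. It was -0.57 without library s141 and -0.46 without the 5 libraries with few genes detected, with adjusted p-values of 0.836 and 0.432, and -1.27 with genes detected per library as a covariate, with an adjusted p of 0.342.

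For Sirt7 the vehicle libraries had 11.8, 11.3, 10.1, 11 and 11.5 CPM and the Cmpd60 libraries 17.9, 16.6, 15.7 and 18.2 CPM. Both groups were narrow and apart, and the log2 change was 0.57 ± 0.34 (SE), 95% interval -0.13 to 1.26, with an adjusted p of 0.668 from edgeR. In littermates Sirt7 overlapped, with 18.4, 12.9, 16.4, 18.0 and 5.18 CPM under vehicle and 3.69, 14.4, 11, 17.6 and 17.7 under Cmpd60, and the interaction was 0.74 ± 0.47 with an adjusted p of 1. Library s139 had 5.36 CPM of Sirt6 and 18.5 CPM of Sirt7. Counted as vehicle, as its labels say, it left 0 of 7 members without overlap, against 1.50% of all genes, and counted as Cmpd60 it left both, against 1.16%. The edgeR test called neither gene under either assignment.

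The other members of the cohort moved with single libraries. Sirt1 was at 16.2, 14.5, 14.8, 17.0 and 0.511 CPM in vehicle littermates, the last from 15 counts in library s155. Sirt5 had 2.69, 9.75, 6.85, 10 and 27.1 CPM in transgenic vehicle brains, where libraries s140 and s146 gave the lowest and the highest value. Sirt3 reached 79.6 CPM in library s155 and 69.6 in library s140, against 38.4 to 58.3 in all other libraries of the cohort. All of these extremes came from the 5 libraries with few genes detected. Without these libraries, and with genes detected per library as a covariate, edgeR called 0 of 7 members in each contrast. Sirt2, at 3045 counts or more in every library, was the most even, and its log2 change with Cmpd60 was -0.02 (95% interval -0.22 to 0.18) in transgenic mice and -0.05 (-0.24 to 0.13) in littermates.

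Sirt2 is known as an abundant transcript of oligodendrocytes, so it was set against the summed CPM of 7 oligodendrocyte markers (Mbp, Mog, Mag, Cnp, Mobp, Cldn11 and Mal), both as log2 deviations from the group mean. The list was shortened to these 7 after its values had been seen, and r was lower over the longer list in both cohorts, so the relation is given as a description with no test. The marker sum ran from 4132 to 5917 CPM in the 12 aged brains and from 3897 to 5904 in the 19 younger ones. In aged brain Pearson's r was 0.842 and Spearman's rho 0.804, and in the younger cohort r was 0.713 and rho 0.628. Without the 2 libraries farthest from the median marker sum, which were 33 and 35 in aged brain and s149 and s157 in the younger cohort, r fell to 0.583 and 0.522. In vehicle heart, where the marker sum was only 62.3 to 76.4 CPM, Sirt2 was at 86.8 to 108 CPM, close to its brain level.

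**Figure D5:**
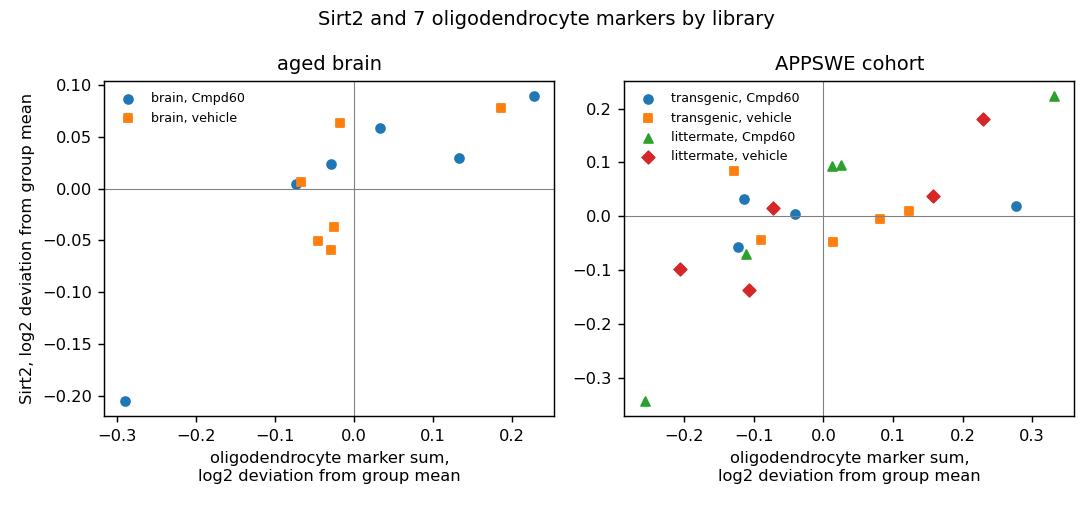
Sirt2 against the summed level of 7 oligodendrocyte markers, both as log2 deviations from the mean of their group, in 12 aged brains (left) and 19 brains of the younger cohort (right); symbols are groups. Both panels rise from lower left to upper right (r = 0.842 and 0.713), with library 33 at the lower left of the aged panel and library s152 at that of the younger one.

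Genes around the synthesis of NAD+, the co-substrate of all sirtuins, were followed as a list of 20, of which 18 matched a gene. Not all of them make NAD+: Acmsd, Nadk, Slc25a51 and Slc12a8 are in the list and do not. Qprt, quinolinate phosphoribosyltransferase of the synthesis from tryptophan, fell with Cmpd60 in kidney, the tissue in which it was highest (64.5 CPM in vehicle kidney against 1 in brain and 0.202 in heart). In kidney it stood at 64.5 ± 3.50 CPM with vehicle (60.6 to 70.2, SD, n = 5) and 33.8 ± 4.02 with Cmpd60 (27.2 to 38.6, n = 6), with no overlap. The log2 change was -0.93 ± 0.09 (SE; adjusted p = 0.000299, edgeR). It was the only one of 16 tested genes of the list called in kidney, where 0.300% of all genes were called. In that tissue 12 of the 16 log2 changes were negative, against 50% over all genes, with a list median of -0.14 against 0 over all genes. The negative ones include Acmsd (-0.22), Nadk (-0.16) and Slc25a51 (-0.22), while Slc12a8 went the other way (0.38). The count therefore does not describe the making of NAD+ alone. Nampt, the rate-limiting enzyme of the salvage route, differed by 0.22 in kidney (adjusted p = 0.572), -0.02 in brain (0.901) and 0.06 in heart (0.875). DESeq2 and limma-voom also called 1 gene of the list in kidney, where they called 429 and 70 of all 20698 genes. In brain and heart 0 of 17 genes passed by edgeR, DESeq2 or limma-voom, with 1 at an unadjusted p below 0.05 by edgeR in each, against 13.8% and 13.5% of all genes, and those with the smallest p were Nmnat1 in brain (log2 -0.26, adjusted p = 0.346) and Kynu in heart (at most 1.08 CPM in any library, adjusted p = 0.27).

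Of 13 genes that consume NAD+ or nicotinamide, such as the poly(ADP-ribose) polymerases, Cd38 and Nnmt, 0 passed in any aged tissue, with 3, 1 and 3 at an unadjusted p below 0.05 in kidney, brain and heart by edgeR, where 11.3%, 13.8% and 13.5% of all genes passed. limma-voom called 0, and DESeq2 called 0, 1 and 1, where it called 429 of 20698, 429 of 24438 and 746 of 19452 genes. The smallest p belonged to Parp3 in kidney (log2 0.32, adjusted p = 0.253) and brain (0.43, adjusted p = 0.134) and to Nudt12 in heart (-0.25, adjusted p = 0.134). Of 22 partners and nuclear substrates, such as Ccar2, Foxo1 and Ppargc1a, 0 passed and 3 were at an unadjusted p below 0.05 in each tissue by edgeR, near those same shares of all genes. limma-voom also called 0, and DESeq2 called 0 in kidney and brain and 3 in heart, against those same DESeq2 counts over all genes. The smallest p belonged to Xrcc6 in kidney (log2 0.31, adjusted p = 0.333), E2f1 in brain (0.30, adjusted p = 0.17) and Foxo4 in heart (-0.27, adjusted p = 0.0914).

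Of 20 matched substrates of the mitochondrial sirtuins, 1 was called in heart by edgeR, where 1.18% of all genes were called. DESeq2 called 5 of the list in heart, where it called 746 of all 19452 genes against 229 by edgeR, and limma-voom called 2. The edgeR call no longer passed the threshold without Cmpd60 library 72 or in the fit of all 34 aged libraries, although the size of the change moved little. In that tissue 17 of the 20 log2 changes were negative, against 50.4% over all genes, 9 of the 20 had an unadjusted p below 0.05, against 13.5% of all genes, and the list median was -0.14 against -0.001 over all genes. In kidney and brain 0 of 18 and 0 of 19 passed by edgeR, with 0 and 4 at an unadjusted p below 0.05, against 11.3% and 13.8% of all genes. DESeq2 called 0 and 1, where it called 429 of all genes in each, and limma-voom called 0 in both. Glud1 had the smallest edgeR p in both (log2 0.35, adjusted p = 0.492, and -0.21, adjusted p = 0.106).

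The vehicle levels of these substrates differed between tissues far more than with treatment. Idh2, which SIRT3 deacetylates, averaged 2410 CPM in heart, 447 in kidney and 32.8 in brain, and Acadvl, of fatty acid oxidation, 1740, 467 and 53.6 CPM. Of the 20 substrates, 16 were lower in brain than in heart and 1 higher at an adjusted p below 0.05, and 17 were lower in brain than in kidney and 1 higher, whereas 28.9% and 32.8% of all genes were lower in those contrasts. For Sirt3 itself the brain and heart difference had a 95% interval of -0.06 to 0.29 on the log2 scale.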

How the data were processed

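RNA-seq was made from poly(A) RNA with a strand-keeping kit. Per the labels and the study's methods, the authors checked reads with FastQC, trimmed them with Trimmomatic 0.32, aligned them with HISAT2 2.1.0 and counted them per gene with HTSeq 0.11.0 using read direction, at default parameters (union overlap mode), on Ensembl annotation; the genome build is not given in the sources used here. The deposited values are raw counts, 1 file per library, and 5 summary lines per file, 15.4 to 22.1% of reads, were left out.

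The counts were tested with edgeR 4.0.16 (quasi-likelihood, TMM) on R 4.3.3, on genes that exceeded 2 counts in 3 or more libraries, with Benjamini-Hochberg adjustment over all genes tested. Aged tissues were fitted singly for treatment and together (34 libraries) for differences between tissues; the younger cohort was fitted with 19 libraries. limma 3.58.1 and DESeq2 1.42.0 were alternatives, with other filters and scalings, other assignments of library s139, genes detected as a covariate in the younger cohort, and each library left out in turn. The test was run on simulated counts with planted changes larger than any sirtuin change with Cmpd60 in aged tissue. That check does not show how often changes as small as those would be called. CPM use TMM factors over all 54 libraries. The 95% intervals come from the edgeR fits and take in the spread between libraries. A count of 3 equals 0.0522 to 0.127 CPM.

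Symbols came from GENCODE vM1 (32651 genes), 2626 of them updated through RefSeq synonyms; exon lengths are from vM1 on NCBIM37. Of the list genes, Nmrk1, Nadk2 and Atp5f1a were not matched. Members and lists were chosen with earlier results of these data known. Named list genes were those called in an aged tissue, at most 4 per list, or else the 1 with the smallest p; similar genes were the 2 with the highest r among genes of at least 1 CPM and a symbol. Results for 3 genes that these rules name or hold, 1 of them a cell type marker, are not reported here.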

Additional observations from a re-analysis of the deposited data

Results flagged for a closer look

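Of 70 sets of libraries (7 genes in 10 groups), 8 held a library whose gap to its nearest neighbour exceeded Dixon's 95% limit, where chance flags about 1 in 20 sets. In the younger cohort there were 4, all in libraries with few genes detected. Sirt1 was lowest in library s141 of the transgenic Cmpd60 group at 7.78 CPM (next 16.3) and in library s155 of the vehicle littermates at 0.511 CPM (next 14.5), and highest in library s152 of the Cmpd60 littermates at 21.6 CPM (next 15.6). Sirt6 was lowest in library s141 at 1.88 CPM (next 7.73).

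The other 4 were in aged tissue. Sirt2 was lowest in brain Cmpd60 library 33 at 97.5 CPM (next 113), which also had the lowest oligodendrocyte marker sum of the aged brains, 4132 CPM, and in kidney vehicle library 48 at 64.5 CPM (next 71.3). Sirt3 was lowest in heart vehicle library 66 at 32.7 CPM (next 41.0), which detected the fewest genes of the heart libraries, 17809. Sirt4 was highest in brain vehicle library 29 at 13.9 CPM (next 10.5).

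Library s139, which the main tests left out, had 18.5 CPM of Sirt7, above the 10.1 to 11.8 CPM of the other transgenic vehicle libraries.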

How the results depend on the processing

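Counts of called sirtuins stayed within 1.5 times of those reported under every alternative run but 1: without brain vehicle library 29 (leaving out 1 brain library gave 0 to 1), 1 sirtuin, Sirt4, was called for Cmpd60 in brain. Leaving out single libraries gave 5 to 7 called members for brain against kidney, 4 for brain against heart and 4 to 5 for kidney against heart. Under plain library totals the members called changed. Sirt5 was lost between brain and kidney. Between brain and heart Sirt1 was lost and Sirt2, Sirt3 and Sirt4 were gained. Between kidney and heart Sirt2 was lost and Sirt1, Sirt4 and Sirt6 were gained. The log2 difference of Sirt1 between brain and heart turned to 0.052 with plain library totals, by construction of the scaling, which was chosen after seeing the data, as were leaving out libraries with few genes detected, leaving out single libraries for differences of response and the other transcript length. The relation of Sirt2 with oligodendrocyte markers fell from r = 0.842 to 0.583 and from 0.713 to 0.522 without the 2 farthest libraries. No paired analysis was possible because the library numbers are unique and no group shares a number with another. Numbers of genes called moved more than those of sirtuins. For Cmpd60 in kidney, brain and heart they were 62, 5 and 229, against 429, 429 and 746 with DESeq2. Without a filter they were 94 in kidney and 102 in brain, with all 34 aged libraries 552 and 0, and limma-voom called 2 in brain. Leaving out 1 library gave 20 to 131, 1 to 372 and 36 to 247, and the 372 came without brain vehicle library 29. For differences of response they were 24, 95 and 14, against 269, 515 and 187 with DESeq2 and 58 and 60 with limma-voom in the first 2. In the younger cohort DESeq2 called 22 genes for Cmpd60 in transgenic mice, 20 for genotype under vehicle and 4 for each of Cmpd60 in littermates and the interaction, against 0, 2, 0 and 0. Without a filter 8, 2 and 2 genes were called for Cmpd60 in transgenic mice, Cmpd60 in littermates and the interaction, and without the sparse libraries 3, 1, 7 and 5 for both Cmpd60 effects and both genotype effects. The cause of these shifts was not tested. The 5 sparse libraries limit the younger cohort.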

Other observations

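Sirt7 was lower in the brains of the younger cohort than in the aged brains. It ran from 3.69 to 18.5 CPM in the 20 younger libraries and from 20.0 to 29.3 CPM in the 12 aged ones. Sirt2 ran from 86.2 to 127 CPM and from 97.5 to 119 CPM in the same libraries, and Sirt3 from 38.4 to 79.6 and from 40.6 to 50.5 CPM. Genes detected ran from 15044 to 24821 in the younger libraries and from 24939 to 28017 in the aged ones. Age, cohort and genes detected differ together between these libraries and cannot be told apart, and no test was run. The share of all genes whose ranges do not overlap between these libraries was not computed, so the separation cannot be called particular to Sirt7.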
